A study of Rattus norvegicus with 12 samples.

Results

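Expression of 9 genes of transient receptor potential (TRP) cation channels was measured in ND7/23 cells. The genes were *Trpm8*, whose channel is the receptor of menthol, with *Trpm7*, *Trpm4*, *Trpc1*, *Trpc4*, *Trpv1*, *Trpv2*, *Trpv4* and *Trpa1*. They were taken by symbol, with earlier results of these data known, and 9 of 9 were found among the 21556 genes of the expression table. ND7/23 cells arose from the fusion of mouse N18Tg2 neuroblastoma cells with neurons of the rat dorsal root ganglion, and they serve as a stand-in for sensory neurons. The RNA-seq experiment had 12 libraries, all sampled at 6 h. Its 4 groups of 3 were control cells, cells given menthol at 100 μM, cells given Wnt3a at 100 ng/ml, and cells given both agents at these concentrations. Menthol opens TRPM8 and Wnt3a activates Wnt/β-catenin signaling, and the stated question was how TRPM8 acts on that signaling. Reads were aligned to the rat genome, so the mouse share of the hybrid genome was measured only through reads that matched rat genes.

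TRP channels let cations, in many members calcium, into the cell when they are opened by temperature, chemicals, lipids or signals from receptors. TRPM8 opens in the cold and with menthol and is known from a subset of sensory neurons, where TRPV1, the capsaicin and heat receptor, and TRPA1, a receptor of irritants, are also found. TRPM7 is a channel joined to a kinase and is present in most cell types.

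The libraries held 36920743 to 38842283 mapped fragments, and the deepest was 1.052 times the shallowest. FPKM, fragments scaled by gene length and by library depth, puts genes of different length on 1 scale. It does not correct for how reads of mouse transcripts were assigned, which may differ between genes. The steps in the values gave back whole reads for 100.0% of the genes, where whole means within a relative distance of 1e-06. In each of the 12 pairs of replicates the reads differed beyond sampling noise, with a chi-square of 3.53 to 7.61 per degree of freedom. Of 21 sensory neuron markers listed, 19 had a row, and 14 of these had a mean under 3 reads per library. *Runx1* (32.2 ± 1.60 FPKM, SD, n = 12) and *Isl1* (13.2 ± 2.74) were high, whereas *Scn10a*, *Scn11a* and *Ret* had 1, 2 and 2 reads in all libraries together. Of 11 general neuronal markers, 3 reached a mean of 0.5 FPKM. *Uchl1* was the highest at 101 FPKM, and the markers under 0.5 FPKM had means of 0.00389 to 0.462 FPKM. In bulk RNA, fewer cells of a type and less RNA per cell cannot be told apart.

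*Trpm8* was expressed at a low level. In the control libraries it had 61, 67 and 88 reads, which correspond to 0.189, 0.212 and 0.274 FPKM (0.225 ± 0.0439, SD, n = 3). All 12 libraries held between 61 and 97 reads of it, so the menthol receptor was detected in each of them, well above the 3 reads taken as the floor. Over the 12 libraries its mean was 0.234 ± 0.0400 FPKM, and 42.8% of the genes in the table had a lower mean.

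*Trpm7* was the most abundant of the 9 genes. It had 27.9, 28.3 and 28.6 FPKM in the control libraries, from 7875, 7828 and 8033 reads. Within a library this was 129 ± 22.1 times the level of *Trpm8* (n = 3), and the interval from counting error alone was 110 to 144 times on the summed reads. *Trpm7* took 84.6 to 87.5% of the summed FPKM of the 9 genes in a library, and *Trpm8* took 0.582 to 0.914%.

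*Trpm4*, a channel opened by intracellular calcium that passes sodium and potassium, and *Trpc1*, a subunit that joins with other TRPC subunits, formed a middle tier. *Trpm4* had 2.21, 2.31 and 2.54 FPKM in the control libraries, 10.6 ± 1.23 times *Trpm8*. *Trpc1* had 1.73, 1.48 and 1.74 FPKM, 7.51 ± 1.49 times *Trpm8*. Both were above *Trpm8* in 12 of 12 libraries.

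*Trpv1* stood beside *Trpm8*. Its control libraries had 12, 30 and 22 reads, or 0.109, 0.277 and 0.200 FPKM, and its ratio to *Trpm8* was 0.871 ± 0.386 (n = 3). The counting interval of that ratio, 0.644 to 1.15, included equality, and *Trpv1* was above *Trpm8* in 6 of 12 libraries. *Trpv1* also varied more between libraries than *Trpm8*. The variance of its reads within groups was 5.93 times the mean, against 1.76 times for *Trpm8* and a median of 2.73 for the 2536 genes with a mean of 10 to 100 reads.

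The remaining members were lower. *Trpv2*, which encodes a calcium-permeable relative of TRPV1, had 10, 12 and 12 reads in the control libraries and 0.453 ± 0.0614 times the level of *Trpm8*. *Trpc4*, a channel opened downstream of receptors coupled to Gq, had 4, 4 and 2 reads. *Trpa1* had 1, 2 and 1, and *Trpv4*, whose channel responds to cell swelling and warmth, had 1, 0 and 0. Relative to *Trpm8*, the summed control reads of these genes gave ratios per length of 0.0971 for *Trpc4* (counting interval 0.0459 to 0.182), 0.0456 for *Trpa1* (0.0123 to 0.118) and 0.0119 for *Trpv4* (0.0003 to 0.0670). Of the 9 members, 5 had more than 3 reads in each of the 12 libraries, and 3 reached a mean of 0.5 FPKM.

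**Figure D1:**
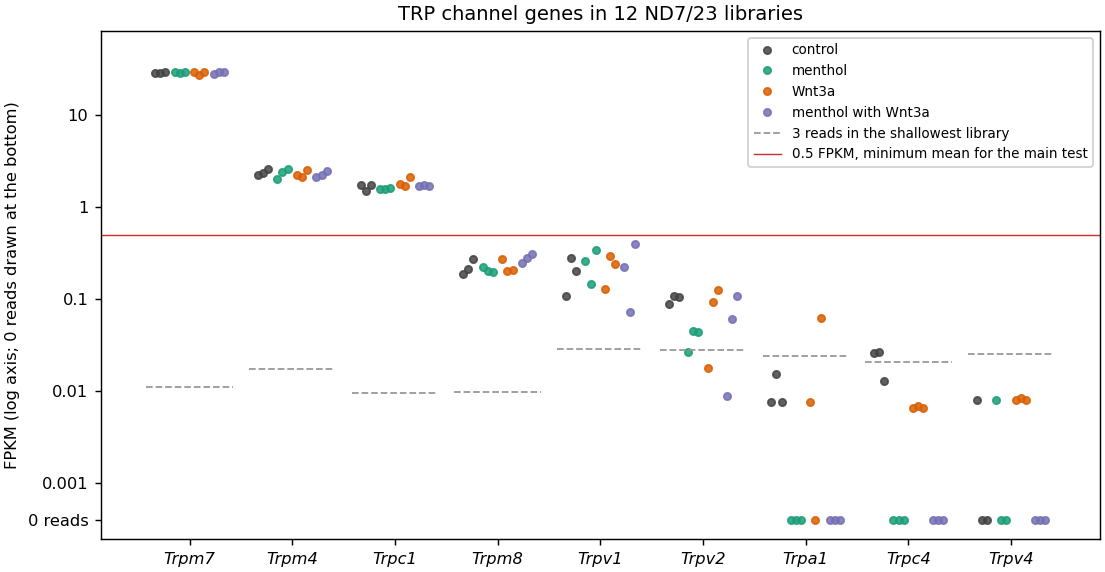
Level of the 9 TRP channel genes in each of the 12 libraries, in FPKM on a log axis, coloured by group; 0 reads are drawn at the bottom, dashes mark 3 reads and the red line marks 0.5 FPKM. *Trpm7* lies near 28.4 FPKM, *Trpm4* and *Trpc1* near 2.31 and 1.69, *Trpm8* and *Trpv1* near 0.234 and 0.223, and the points of each gene's 4 groups lie at similar heights for the 3 most abundant genes.

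The order of the mean levels over 12 libraries was *Trpm7*, *Trpm4*, *Trpc1*, *Trpm8*, *Trpv1*, *Trpv2*, *Trpa1*, *Trpc4* and *Trpv4*. Neighbours were compared by a two-sided sign-flip permutation test of the within-library difference in log2(FPKM + 0.1), adjusted over 8 pairs. In 5 of the 8 pairs the higher gene led in 12 of 12 libraries, at a permutation test adjusted p of 0.000781. The smallest unadjusted p that 12 libraries can give is 0.000488. Since the pairs were set by the order in these same libraries, the test is no separate support for that order. *Trpm8* and *Trpv1* did not differ beyond their spread (mean log2 ratio 0.10 ± 0.501, permutation test, adjusted p = 0.577). Nor did *Trpa1* and *Trpc4* (adjusted p = 0.969) or *Trpc4* and *Trpv4* (adjusted p = 0.333), which rest on a few reads each. In the control group alone *Trpc4* stood above *Trpa1*.

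Sequences before the transcription start were compared with these levels. RefSeq promoters of assembly GRCr8 matched 7 of the 9 genes, all but *Trpc1* and *Trpa1*, and the window of 250 bases before the start was read in the direction of the gene. The windows of *Trpm7* and *Trpm8* are shown because their levels lay far apart, and that of *Trpv4* because it departs from the pattern. They are at chr3:134588114-134588363 (minus strand), chr9:96351433-96351682 (plus strand) and chr12:47598938-47599187 (plus strand), 5′ to 3′, with capitals marking each CG dinucleotide.
Trpm7: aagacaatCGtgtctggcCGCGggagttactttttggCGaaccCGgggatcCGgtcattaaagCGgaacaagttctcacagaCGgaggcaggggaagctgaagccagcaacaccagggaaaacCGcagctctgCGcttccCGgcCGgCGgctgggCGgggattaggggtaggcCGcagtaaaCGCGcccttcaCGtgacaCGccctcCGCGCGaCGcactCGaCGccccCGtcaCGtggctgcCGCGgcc
Trpm8: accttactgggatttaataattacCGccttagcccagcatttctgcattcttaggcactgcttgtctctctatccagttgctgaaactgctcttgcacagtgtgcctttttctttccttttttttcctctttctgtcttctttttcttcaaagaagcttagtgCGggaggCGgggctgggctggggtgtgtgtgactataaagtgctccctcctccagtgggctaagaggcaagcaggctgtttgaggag
Trpv4: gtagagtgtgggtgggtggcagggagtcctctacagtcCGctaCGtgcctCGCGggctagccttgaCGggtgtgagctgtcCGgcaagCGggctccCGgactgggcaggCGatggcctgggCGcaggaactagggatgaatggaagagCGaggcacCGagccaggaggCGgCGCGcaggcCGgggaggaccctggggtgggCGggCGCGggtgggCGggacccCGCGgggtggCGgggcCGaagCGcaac

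The *Trpm7* window held 29 CG dinucleotides and a GC content of 65.2%, and 94.0% of the 33469 promoters in the table held fewer. The *Trpm8* window held 3, and 28.6% of the promoters held fewer. *Trpm4* had 21, *Trpv2* 7, *Trpv1* 6 and *Trpc4* 2. *Trpv4* was the exception, with 25 CG dinucleotides, a GC content of 72.8% and 5 reads in the 12 libraries together. As a background, the median number was 18 for the 4644 genes with a mean of at least 10 FPKM, 15 for the 4095 genes from 0.5 to 10 FPKM and 5 for the 5897 genes under 0.5 FPKM. Short motifs were searched on both strands. The window of *Trpm8* alone among the 7 held TATAAA, which 12.9% of all promoters hold, and it lies within the stretch ctataaag printed above. CCGCCC was found for *Trpm7*, *Trpm4* and *Trpv4* (30.5% of all promoters), as was TGACG (18.2%), and CACGTG for *Trpm7* (5.59%). Neither TGACGTCA, which contains TGACG and which 1.59% of all promoters hold, nor CTTTGAT (3.15%) was in any of the 7 windows. These matches describe the letters of the windows only.

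Change over the 4 groups was tested with limma on log2(FPKM + 0.1), with Benjamini-Hochberg adjustment over all tested genes and a call at an adjusted p under 0.05. *Trpm7*, *Trpm4* and *Trpc1* were tested among the 11451 genes with a mean of at least 0.5 FPKM. *Trpm8*, *Trpv1* and *Trpv2* lay under this minimum and were tested in the same fit over all 21556 genes. Of these 6 genes, 0 were called in any comparison, and 0 reached an unadjusted p under 0.05 by limma or by limma voom on the recovered reads. The background was small. With the minimum, 0.105% of genes were called between menthol and control, 0.437% between Wnt3a and control and 0.83% between both agents and control. Between both agents and Wnt3a alone the share was 0.0524%, between both agents and menthol alone 0.0961%, and for any change over the groups 0.978%. No gene was called for the interaction of menthol and Wnt3a (0%, with 800 genes at an unadjusted p under 0.05 in limma). Over all 21556 genes these shares were 0.00928%, 0.0418%, 0.278%, 0%, 0.00928%, 0.278% and, for the interaction, 0.00464%. Comparisons against control share the control libraries. *Trpc4*, *Trpv4* and *Trpa1* had a mean under 3 reads per library and were not tested.

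*Trpm8* with menthol had 71, 64 and 63 reads, or 0.223, 0.201 and 0.197 FPKM. These values lay within the range of the control libraries. The log2 fold change was -0.07 (SE 0.149, 95% interval -0.40 to 0.26, limma adjusted p = 0.977). Because the constant of 0.1 shrinks changes at this level, the fit on reads is given beside it: limma voom gave -0.10, with a 95% interval of -0.58 to 0.37.

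Wnt3a left *Trpm8* reads at 88, 62 and 65, or 0.275, 0.202 and 0.205 FPKM. One library was as high as the highest control, and the groups overlapped. The log2 fold change was 0.01 (95% interval -0.32 to 0.34), and by limma voom 0.02 (-0.45 to 0.49). The sign of this difference turned with another scaling of the libraries.

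With menthol and Wnt3a together, *Trpm8* had 77, 90 and 97 reads, or 0.243, 0.279 and 0.307 FPKM. All 3 libraries were above the 3 with menthol alone, and they overlapped the control and Wnt3a groups. Groups that do not overlap in this comparison were found for 8.84% of all genes. The difference from menthol was 0.29 on the log2 scale (95% interval -0.04 to 0.62, limma unadjusted p = 0.0794, adjusted p = 0.908), and from control 0.22 (-0.11 to 0.55, adjusted p = 0.691). The interaction of menthol and Wnt3a for *Trpm8* was 0.28 (-0.19 to 0.75, limma adjusted p = 0.871). Without 1 library at a time, the interaction ranged from 0.173 (without control replicate 3) to 0.380 (without Wnt3a replicate 1). The difference of both agents from control then ranged from 0.138 (without control replicate 1) to 0.323 (without control replicate 3).

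The libraries were also compared by agent, with the other agent as stratum, in an exact two-sided permutation test of RPM, reads per 1000000 mapped fragments, over 400 splits, whose smallest p is 0.005. *Trpm8* had 2.01 ± 0.364 RPM with menthol and 1.88 ± 0.317 without (SD, n = 6 each, exact permutation p = 0.495, adjusted over 6 tests 0.938). With Wnt3a it had 2.09 ± 0.353 and without 1.80 ± 0.256 (exact permutation p = 0.13, adjusted p = 0.39). Neither comparison passed, and the libraries with and without each agent overlapped. Without 1 library at a time, the difference for menthol, 0.131 RPM, ranged from 0.0225 (without replicate 3 of both agents) to 0.212 (without Wnt3a replicate 1).

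**Figure D2:**
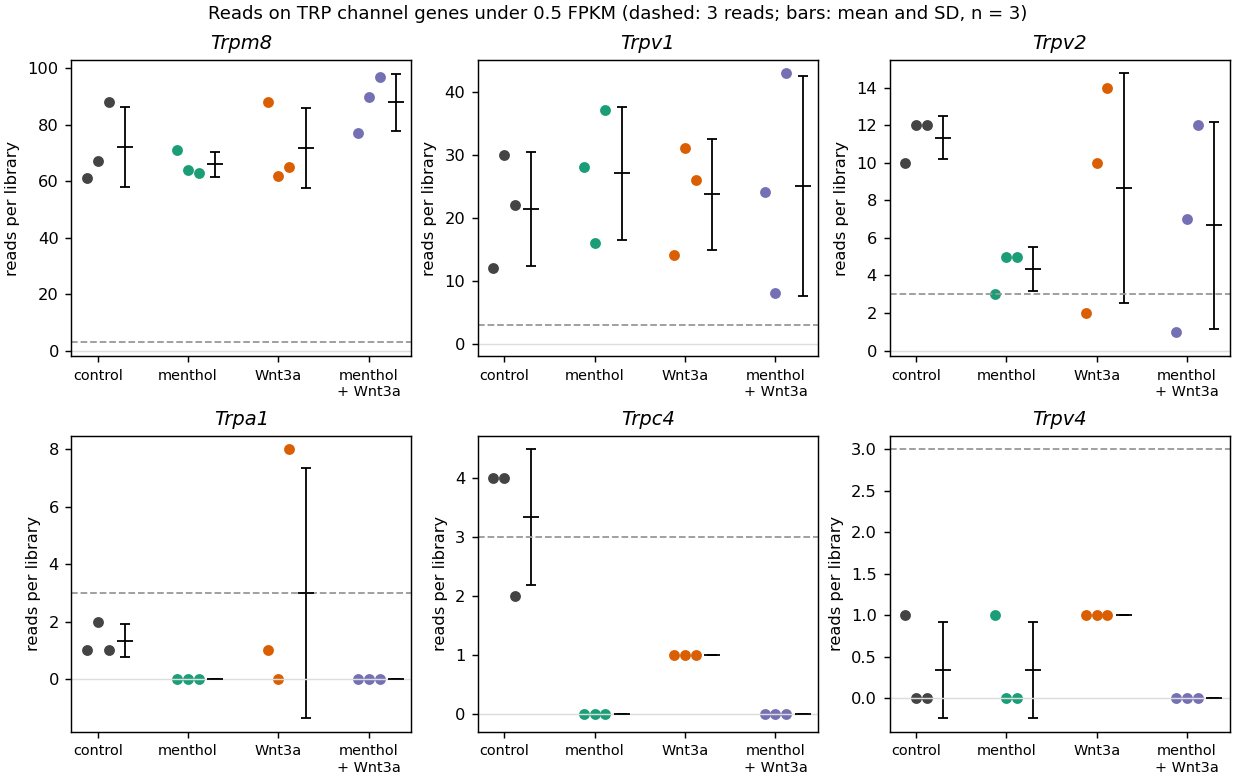
Reads per library for the 6 TRP channel genes under 0.5 FPKM, by group; each point is a library, the bars give the mean and SD of 3 libraries, and the dashed line marks 3 reads. *Trpm8* ranges from 61 to 97 reads, *Trpv1* from 8 to 43 and *Trpv2* from 1 to 14, and *Trpc4* and *Trpa1* have 0 reads in the 6 libraries with menthol.

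For the 3 abundant members the groups lay close together. *Trpm7* had 28.6, 28.0 and 29.1 FPKM with menthol, 28.7, 27.0 and 28.7 with Wnt3a, and 27.7, 29.2 and 28.6 with both. All 4 groups overlapped. The log2 fold change was 0.02 for menthol (SE 0.0352, 95% interval -0.06 to 0.09, limma adjusted p = 0.927) and -0.01 for Wnt3a (-0.08 to 0.07, adjusted p = 0.960), so these intervals leave room for changes of *Trpm7* below 0.1 on the log2 scale only.

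*Trpm4* had 2.02, 2.41 and 2.57 FPKM with menthol, 2.23, 2.10 and 2.49 with Wnt3a, and 2.12, 2.23 and 2.47 with both, against 2.21, 2.31 and 2.54 in control. The groups overlapped throughout. Its log2 fold change for menthol was -0.02 (SE 0.105, 95% interval -0.24 to 0.21, limma adjusted p = 0.980), and over the 4 groups the adjusted p of *Trpm4* was 0.978.

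For *Trpc1*, the values were 1.57, 1.57 and 1.60 FPKM with menthol, 1.76, 1.66 and 2.08 with Wnt3a, and 1.67, 1.74 and 1.68 with both. The libraries with both agents were all above those with menthol alone, a pattern that 11.3% of the tested genes had in one direction or the other. In the other comparisons no member above 0.5 FPKM had groups apart, beside 15.9% of tested genes for menthol, 20.2% for Wnt3a and 20.5% for both agents against control, and 17.7% for both agents against Wnt3a. The difference was 0.10 on the log2 scale and was not called (limma adjusted p = 0.934). Wnt3a against control gave 0.14 (95% interval -0.08 to 0.36, adjusted p = 0.553), and 1 Wnt3a library of *Trpc1*, with 684 reads, was the highest of the 12. Without that library the difference was 0.05.

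**Figure D3:**
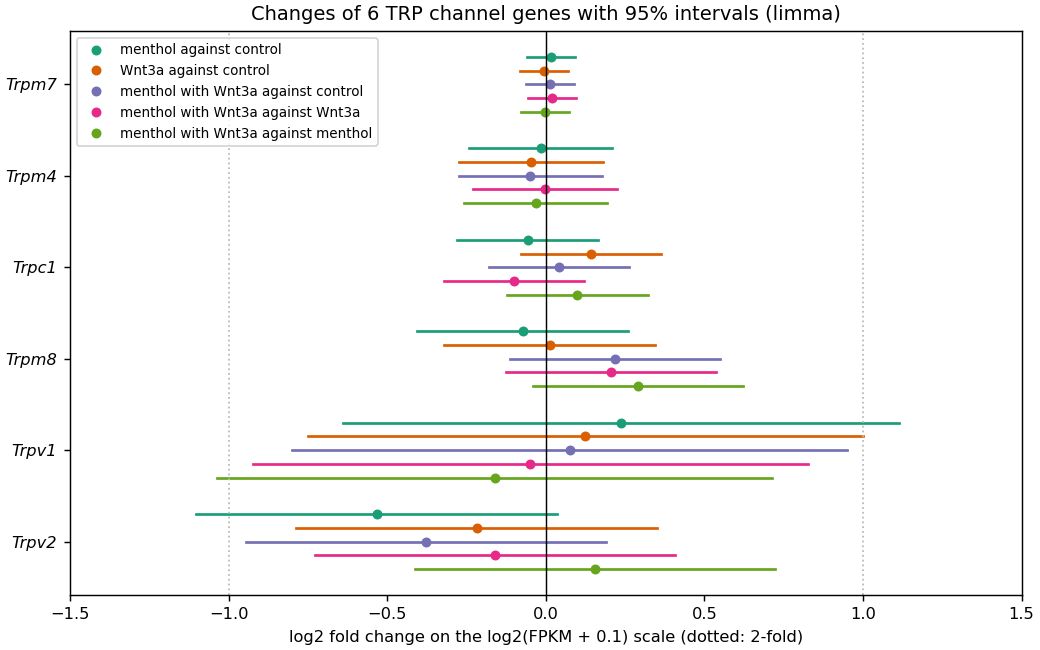
Log2 fold changes of the 6 tested TRP channel genes in 5 comparisons on the log2(FPKM + 0.1) scale, with 95% intervals from limma; dotted lines mark a change of 2-fold. All intervals include 0, and they widen from *Trpm7*, with -0.06 to 0.09 for menthol against control, to *Trpv1*, with -0.64 to 1.11.

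With menthol, *Trpv1* had 28, 16 and 37 reads. It had 14, 31 and 26 with Wnt3a, and 24, 8 and 43 with both agents, beside the 12, 30 and 22 of the control libraries. The lowest and the highest of the 12 libraries were both in the group given both agents. The log2 fold change for menthol was 0.24 (SE 0.394, 95% interval -0.64 to 1.11, limma adjusted p = 0.957). The interval includes a rise of *Trpv1* by 2-fold. Leaving out control replicate 1 brought the value to 0.01, and leaving out menthol replicate 2 brought it to 0.46.

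The menthol libraries held 3, 5 and 5 reads of *Trpv2*, the Wnt3a libraries 2, 10 and 14, and those with both agents 1, 7 and 12, beside 10, 12 and 12 for control. All menthol libraries were below all control libraries, which was so, in either direction, for 11.3% of all genes. Its log2 fold change was -0.53 (SE 0.256, 95% interval -1.10 to 0.04, limma unadjusted p = 0.0631, adjusted p = 0.711), the smallest p among the tested members in this comparison. On the recovered reads, where the constant does not shrink it, limma voom gave *Trpv2* -1.31 (95% interval -2.80 to 0.18, adjusted p = 0.727). Over the agents, *Trpv2* had 0.144 ± 0.0993 RPM in the 6 libraries with menthol and 0.262 ± 0.110 in the 6 without (exact permutation p = 0.1, adjusted p = 0.39), and the ranges overlapped.

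The members with the fewest reads, not tested, had most of them in libraries without menthol. *Trpc4* was at 4, 4 and 2 reads in control, at 1, 1 and 1 with Wnt3a, and at 0 in each of the 6 libraries with menthol. *Trpa1*, whose channel menthol also acts on, had 1, 2 and 1 in control, 1, 0 and 8 with Wnt3a, and 0 in the same 6 libraries. Each thus had 13 reads in the 6 libraries without menthol and 0 in the 6 with it, but 8 of the *Trpa1* reads came from 1 Wnt3a library, and 5 remained without it. The share of all genes with such a split over the 12 libraries was not counted, so how unusual it is cannot be said.

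The floor of 3 reads in a library equals 0.0195 to 0.0205 FPKM for *Trpc4* and 0.0229 to 0.0241 for *Trpa1*, so a loss of either was not detectable at this depth in single libraries. The control libraries of *Trpc4* stood above each of the other groups without overlap, and those of *Trpa1* above both groups with menthol. *Trpv4* had 1, 1 and 1 reads with Wnt3a, 1, 0 and 0 with menthol, and 0 in each library with both agents. Its Wnt3a values lay above the control values only because 1 read counts for more FPKM in a shallower library, since the highest control library also held 1 read. Groups without overlap in FPKM were found for 11.3% of all genes for menthol, 13.8% for Wnt3a and 14% for both agents against control, and 12.3% for both agents against Wnt3a. On 10 reads against 0, the fit over all genes gave *Trpc4* a limma adjusted p of 0.0494 for both agents against control. It ranged from 0.00848 with limma voom to 0.201 with only the groups compared, and it was 0.0847 with the replicate block. Without 1 library it was not under the threshold in 11 of 12 cases, so the difference is given as reads only.

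Markers of fibroblasts were lower in sum in the libraries with menthol, and 0 of the 4 tested passed for menthol against control. The summed FPKM of the 6 listed genes, 6 of 6 with a row and none at 0 in all libraries, was 136 to 145 in control, 124 to 128 with menthol, 129 to 135 with Wnt3a and 124 to 126 with both. *Col1a2* (115 ± 5.72 FPKM), a collagen chain, fell by 0.16 on the log2 scale with both agents (limma adjusted p = 0.0200). Glial markers, 6 of 6 with a row, summed to 0.532 to 0.588 FPKM in control, 0.512 to 1.01 with menthol, 0.628 to 1.18 with Wnt3a and 1.04 to 1.47 with both. Their part in the reads of *Trpc4*, *Trpa1* and *Trpv2* was not tested.

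Of 19 other TRP channel genes listed, 18 had a row, and *Trpv5* was not analysed here. *Mcoln1*, a lysosomal calcium channel, stood at 26.6 ± 1.28 FPKM (SD, n = 12) and *Pkd2*, the polycystin channel of cilia and the endoplasmic reticulum, at 10.9 ± 0.479, so that both lay with *Trpm7* well above *Trpm8*. *Trpm1* (0.330 ± 0.0458 FPKM, 58 to 91 reads), *Mcoln3* (0.157 FPKM, 2 to 33 reads) and *Trpv3* (0.0633 FPKM, 6 to 34 reads) were the others with a mean of at least 10 reads. The remaining 13 had at most 13 reads in any library. Neither of the 2 that were tested passed in any comparison: the smallest adjusted p was 0.239, for *Mcoln1* with Wnt3a, at a log2 fold change of -0.11 (95% interval -0.21 to -0.02, limma).

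**Figure D4:**
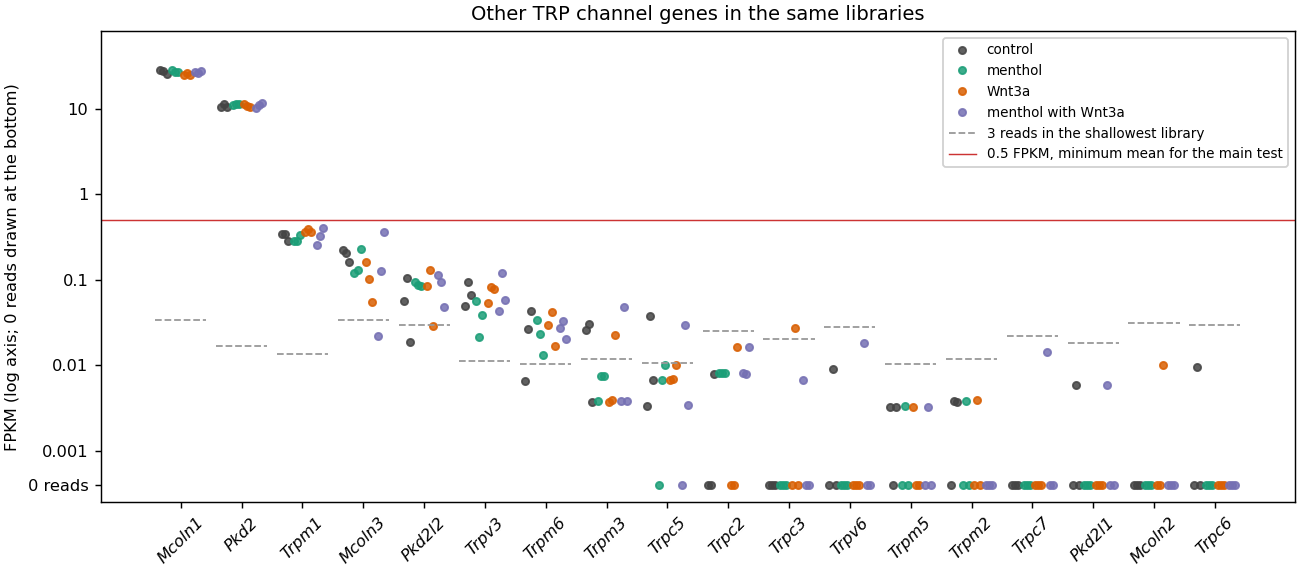
Level of 18 other TRP channel genes in each of the 12 libraries, in FPKM on a log axis with 0 reads at the bottom, coloured by group; dashes mark 3 reads and the red line marks 0.5 FPKM. *Mcoln1* and *Pkd2* lie at 26.6 and 10.9 FPKM, and the other 16 genes lie under the line.

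Regulators of TRP channels were mostly well expressed. Of 20 genes of phospholipase C, of the synthesis of the lipid PIP2, which TRPM8 needs to open, of Gq proteins and of calmodulin, 15 were tested and 0 were called in any comparison. *Calm2* and *Calm3*, which encode calmodulin, stood at 403 and 215 FPKM, and *Gna11* and *Gnaq*, the Gq proteins that switch on phospholipase C, at 40.0 and 35.6 FPKM. *Pirt*, a membrane protein that binds TRPM8 and TRPV1 in sensory neurons, had 1 read in all 12 libraries. For menthol against control, 8 of the 15 had a higher mean and 7 a lower one, with a median log2 fold change of 0.00 beside -0.00 for all tested genes.

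The KEGG pathway of inflammatory mediator regulation of TRP channels held 104 genes, of which 50 were tested. None passed for menthol or for Wnt3a against control, where 22 had a higher and 28 a lower mean in each case. *P2ry2*, a receptor of extracellular nucleotides coupled to Gq, was the 1 gene that passed. It was higher with both agents than in control by 0.30 on the log2 scale (SE 0.0428, limma adjusted p = 0.00400) and than with menthol alone by 0.25 (adjusted p = 0.0430). The pathway's median log2 fold change was -0.01 for menthol and 0.01 for both agents against control.

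Other reported targets of menthol had few reads. Of 17 genes listed, 14 had a row and 11 of these had a mean under 3 reads. *Gabra2*, a subunit of the GABA-A receptor, had 0.643 ± 0.0926 FPKM and was the 1 gene tested, with a log2 fold change of -0.08 for menthol (95% interval -0.46 to 0.30, limma adjusted p = 0.925). *Chrnb4*, a subunit of nicotinic acetylcholine receptors, had 0.280 FPKM. The sensory sodium channel gene *Scn9a* had 22 reads in the 12 libraries and *Scn10a* 1. *Gabra4*, *Gabra6* and *Chrna3* were not analysed here.

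The genes whose profile over the 12 libraries was most like that of a tested member were named by Pearson's r of log2(FPKM + 0.1) among 11450 genes, as a description, since the points share libraries. They were *Uhrf1bp1l* (0.865) and *Atf7* (0.853) for *Trpm7*, *Bcar3* (0.906) and *Hoxb6* (0.905) for *Trpm4*, and *Snupn* (0.846) and *Tom1l1* (0.844) for *Trpc1*.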

How the data were processed

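RNA of ND7/23 cells was sequenced by the authors as 150 bp paired-end reads in 12 libraries, 3 for each of 4 groups taken from the sample labels. The authors used fastp to filter reads, HISAT for alignment and HTSeq to count fragments per gene, and they deposited FPKM values, in 1 column per library with annotation columns beside them. The submitters' processing notes name the rat build mRatBN7.2 and R 3.2.0. Versions of the other tools are not given in the sources used here, and how reads of mouse transcripts were assigned is not stated. FPKM is relative to the library's mapped fragments, so a rise of abundant genes lowers the others.

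Whole reads, gene lengths and library totals were recovered from the steps of the FPKM values. For 1804 genes above 0 in 1 library only, the read count rests on 1 value. In simulated libraries, 12 of 12 totals and 99.8% of genes were recovered. Intervals and floors cover counting error only. On a gene of 1 kb, 3 reads equal 0.0772 to 0.0813 FPKM.

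The main test was limma (3.58.1, under R 4.3.3) of log2(FPKM + 0.1) values, with a variance trend, 4 groups in 1 fit, no replicate block and genes with a mean of at least 0.5 FPKM. The authors used DESeq2 with a 2-fold minimum. Since FPKM was deposited, a linear model on the log2 scale was used here, with no fold minimum. On simulated libraries of 11448 genes for menthol against control, 53 of 57 genes changed 1.5-fold, 71 of 71 changed 2.5-fold and 3 of 11250 unchanged genes passed. The changed genes were drawn from those with a mean of at least 0.5 FPKM, and all genes were given 1 spread beyond counting. The simulation therefore does not cover *Trpm8*, *Trpv1* and *Trpv2*, which lie under that minimum. Permutation tests used scipy 1.17.1. Nothing in the sources used here says whether replicates were separate cultures, so p-values measure only the spread between these samples.

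Named were the 9 members, other TRP channel genes with a mean of at least 10 reads, from the other lists genes that passed in any comparison and the 3 with the highest FPKM, and the 2 genes most like each tested member. Other genes named (*P2rx3*, *Gna11*, *Gnaq*, *Pirt*, *Scn9a*, *Scn10a*, *Scn11a* and *Ret*) were chosen after their values were seen. The marker genes *Drgx*, *Prdm12*, *Myog* and *Myod1* were not analysed here, and a few listed genes are left unreported. The members and lists were chosen with earlier results of these data known. Alternatives were other pseudocounts and FPKM minimums, libraries centred on their median, fits of only the compared groups, a replicate block, limma voom on reads, a 2-fold minimum, unscaled reads and leaving out each library.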

Additional observations from a re-analysis of the deposited data

How the results depend on the processing

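None of the 6 tested members passed the threshold under any alternative, over 19 to 21 fits for each. With 1 library left out, 459 of the members' fold changes and overall tests kept direction and call and 45 changed sign, and under the other alternatives 299 did and 4 changed sign. The counts of all genes past the threshold moved with the processing, and the cause was not tested. With no FPKM minimum the counts were 2 instead of 12 for menthol against control, 9 instead of 50 for Wnt3a against control, 60 instead of 95 for both agents against control, with 1 member passing (*Trpc4*, not tested by design), 0 instead of 6 for both against Wnt3a, 2 instead of 11 for both against menthol, 1 instead of 0 for the interaction and 60 instead of 112 for any change. In the same order of the 5 comparisons of groups, fits of only the groups compared gave 3, 17, 49, 0 and 4, limma voom on recovered reads 60, 303, 261, 143 and 33 (502 for any change), and the 2-fold minimum 1, 2, 0, 0 and 0. Centring gave 5 for both against menthol. The replicate block gave 21 for menthol against control and 24 for both against Wnt3a. It changed no call of the 6 tested members, and *Trpc4* was then not under the threshold for both agents against control (limma adjusted p = 0.0847). Of the members not tested by design, *Trpc4* was under it by limma voom for menthol against control (adjusted p = 0.0237), and *Trpv4* for both against Wnt3a with only the groups compared (adjusted p = 0.0271). For any change over the 4 groups, *Trpc4* had a limma adjusted p of 0.0728 in the fit over all genes. It was under the threshold in 2 of 5 other alternatives, with an adjusted p of 0.0114 by limma voom. Without 1 library it was not under the threshold in 12 of 12 cases. Same-numbered libraries deviated together (r over 0.1) in 1 of 18 pairs, so the numbers were not taken to pair the libraries. Where scaling or pseudocount turned a sign, the difference was near 0: *Trpm8* with Wnt3a was -0.0168 with centred libraries, and the log2 ratio of *Trpa1* to *Trpc4* was -0.0387 with a pseudocount of 0.01. Over 12 libraries the ratio to *Trpm8* was 0.0334 for *Trpc4* and 0.305 for *Trpv2*, and in control alone the log2 ratio of *Trpc4* to *Trpv4* was 0.25. Leaving out 1 library at a time, the counts ranged from 0 (without control replicate 3) to 15 for menthol and from 6 (without control replicate 3) to 291 (without Wnt3a replicate 3) for Wnt3a against control. They ranged from 41 (without replicate 2 of both agents) to 100 for both agents against control, from 0 to 38 (without Wnt3a replicate 3) against Wnt3a, from 3 (without menthol replicate 1) to 14 against menthol, from 0 to 1 for the interaction and from 61 (without replicate 2 of both agents) to 140 for any change. The log2 fold change of *Trpm8* then ranged from -0.153 to 0.0325 (without control replicate 3) for menthol and from -0.0894 to 0.118 for Wnt3a, that of *Trpm7* from -0.0205 to 0.0230 for Wnt3a and that of *Trpm4* from -0.0865 to 0.0792 for menthol. In RPM, the difference ranged from -0.00216 to 0.183 for *Trpv1* with menthol, from -0.0851 to 0.0999 for *Trpv1* with Wnt3a and from -0.0347 to 0.0335 for *Trpv2* with Wnt3a. With 2 libraries left in a group, the spread was taken from the fit of all groups.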

Other observations

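Among the sensory neuron markers, 2 of the 19 with a row were tested, and *Isl1*, a transcription factor of sensory neurons, was the 1 that passed. It was higher with Wnt3a than in control by 0.50 on the log2 scale (SE 0.0727, limma adjusted p = 0.0121), higher with both agents than in control by 0.46 (adjusted p = 0.00684), and higher with both agents than with menthol alone by 0.59 (adjusted p = 0.00531). *Runx1*, the other marker tested, did not pass in any comparison, and *Avil* (0.403 FPKM) and *P2rx3* (0.247 FPKM) lay near the level of *Trpm8*. Of 11 general neuronal markers, 3 were tested and 0 passed. Besides *Uchl1* these were *Map2* at 6.70 FPKM and *Nefh* at 5.93 FPKM, and the others had means of 0.00389 to 0.462 FPKM. The muscle markers, 5 of 7 with a row, summed to 0.933 to 1.98 FPKM in the libraries. Only 1 of them was tested, and it did not pass in any comparison.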
